A study of Rattus norvegicus with 6 samples.

Results

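Transcripts that are best known from liver were followed in rat gastrocnemius muscle: Alb, Ttr, Apoa1, Apob, Apoc3, Fgb, Fgg, Serpina1, Ahsg and Cps1. The members were the rows of the array table whose platform symbol is one of these names, taking the row with the highest mean over all arrays. Each of the 10 symbols had exactly 1 row, and they are 10 of the 14506 genes compared. The genes were picked because their levels on these arrays were already known to differ between arrays of the same diet, so those levels are given as a description and support no test. Of these, 9 encode secreted plasma proteins, whereas Cps1 encodes a mitochondrial enzyme.

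The muscle came from male Sprague-Dawley rats made obese by diet, which ate 1 of 3 feeds at will from 12 weeks of age for 8 weeks and were 20 weeks old when sampled. All feeds were high in fat and sucrose, held 4.6 kcal/g and drew 10% of their energy from protein. In the leucine group 7.1% of energy was casein and 2.9% leucine, in the dairy group the protein was whole dairy from skim milk powder, and in the casein group, the control, it was casein. There are 2 Affymetrix Rat Gene 1.0 ST arrays per diet from a design of 4 rats per diet, and nothing in the labels ties an array to a rat. Any p-value here covers array-to-array spread alone, which may be technical. Every array is labelled gastrocnemius, but the storage and RNA extraction texts of all samples name liver.

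As background, most proteins of blood plasma are made by hepatocytes and secreted. Their genes are driven in the liver by a set of transcription factors that includes the HNF1, HNF4, FOXA and C/EBP families, and skeletal muscle fibres are not regarded as a main source of them. Several rise in the liver during inflammation as acute phase proteins, among them the fibrinogen chains.

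The arrays showed muscle. The median of 14 fast-fibre genes lay between 12.5 and 12.8 on the log2 signal scale on every array, where the array medians over all genes ran from 4.06 to 4.20. Casein array 2 stood apart in slow-fibre genes, whose median over 11 genes was 2.98 log2 units below their own mean there and 0.45 to 1.08 above it on the other 5 arrays. This array is also the one with the highest signal of every liver-type member. Comparisons with casein are therefore given with and without it for the members and for the liver, adipocyte, macrophage and slow-fibre gene lists. Slow-fibre genes had median log2 fold changes against casein of 2.17 with leucine and 1.69 with dairy, or −0.05 and −0.24 without this array. The part of this array's muscle makeup in the results was not tested.

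Albumin, the main carrier and osmotic protein of plasma, had the widest range. Alb stood at 4.81 and 9.80 on the leucine arrays, at 8.11 and 5.54 on the dairy arrays, and at 9.48 and 11.69 on the casein arrays, in the order array 1, array 2 and in log2 signal. The highest array was 117-fold above the lowest, and leucine array 2 was 31.6-fold above leucine array 1, which is a wider gap than between the means of any pair of diets. Ttr, transthyretin, which carries thyroid hormone and retinol-binding protein, stood at 3.68 and 5.68 with leucine, 4.26 and 3.42 with dairy, and 4.96 and 6.86 with casein. It followed the same course over a narrower range, 10.9-fold from the lowest to the highest array.

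The apolipoproteins package lipid for transport in blood. Apob, the structural protein of very low density lipoprotein, stood at 2.67 and 4.66 with leucine, 3.47 and 2.72 with dairy, and 4.39 and 6.58 with casein. Apoc3, which restrains the clearance of triglyceride-rich particles, stood at 3.82 and 5.90 with leucine, 4.70 and 4.06 with dairy, and 5.19 and 7.40 with casein. In both genes casein array 2 was highest and leucine array 1 lowest, and the leucine arrays spanned both dairy arrays. Apoa1, the main protein of high density lipoprotein, stood at 4.33 and 4.95 with leucine, 4.52 and 4.13 with dairy, and 4.91 and 6.45 with casein. It had the smallest range of the members, 4.99-fold, and outside casein array 2 its 5 values lay within 1 log2 unit. Apoa1 and Apoc3 are direct neighbours in the rat gene order of assembly GRCr8.

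Fgb and Fgg encode the beta and gamma chains of fibrinogen, the precursor of fibrin in clots, and flank Fga, the gene of the alpha chain. Fgb stood at 2.55 and 4.29 with leucine, 2.86 and 2.44 with dairy, and 3.37 and 4.94 with casein. Fgg stood at 2.84 and 6.37 with leucine, 3.95 and 2.64 with dairy, and 4.07 and 7.01 with casein. In Fgg leucine array 2 came within 0.64 log2 units of casein array 2 and lay 2.30 above casein array 1, the widest gap between those arrays in any member.

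Serpina1, alpha-1-antitrypsin, the inhibitor of neutrophil elastase, stood at 3.18 and 6.50 with leucine, 4.93 and 3.18 with dairy, and 5.51 and 8.07 with casein. Ahsg, fetuin-A, a plasma inhibitor of calcification, stood at 3.55 and 5.53 with leucine, 4.38 and 4.41 with dairy, and 5.07 and 7.27 with casein. Ahsg was the only member in which the dairy arrays were level with each other, 0.03 log2 units apart, against 0.39 to 2.57 in the others. Cps1, carbamoyl phosphate synthetase 1, which starts the urea cycle inside mitochondria, stood at 2.85 and 4.29 with leucine, 3.37 and 2.70 with dairy, and 3.95 and 5.97 with casein. Although it is not secreted, its 4 highest arrays came in the same order as in 8 of the 9 plasma proteins, all but Ahsg.

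**Figure D1:**
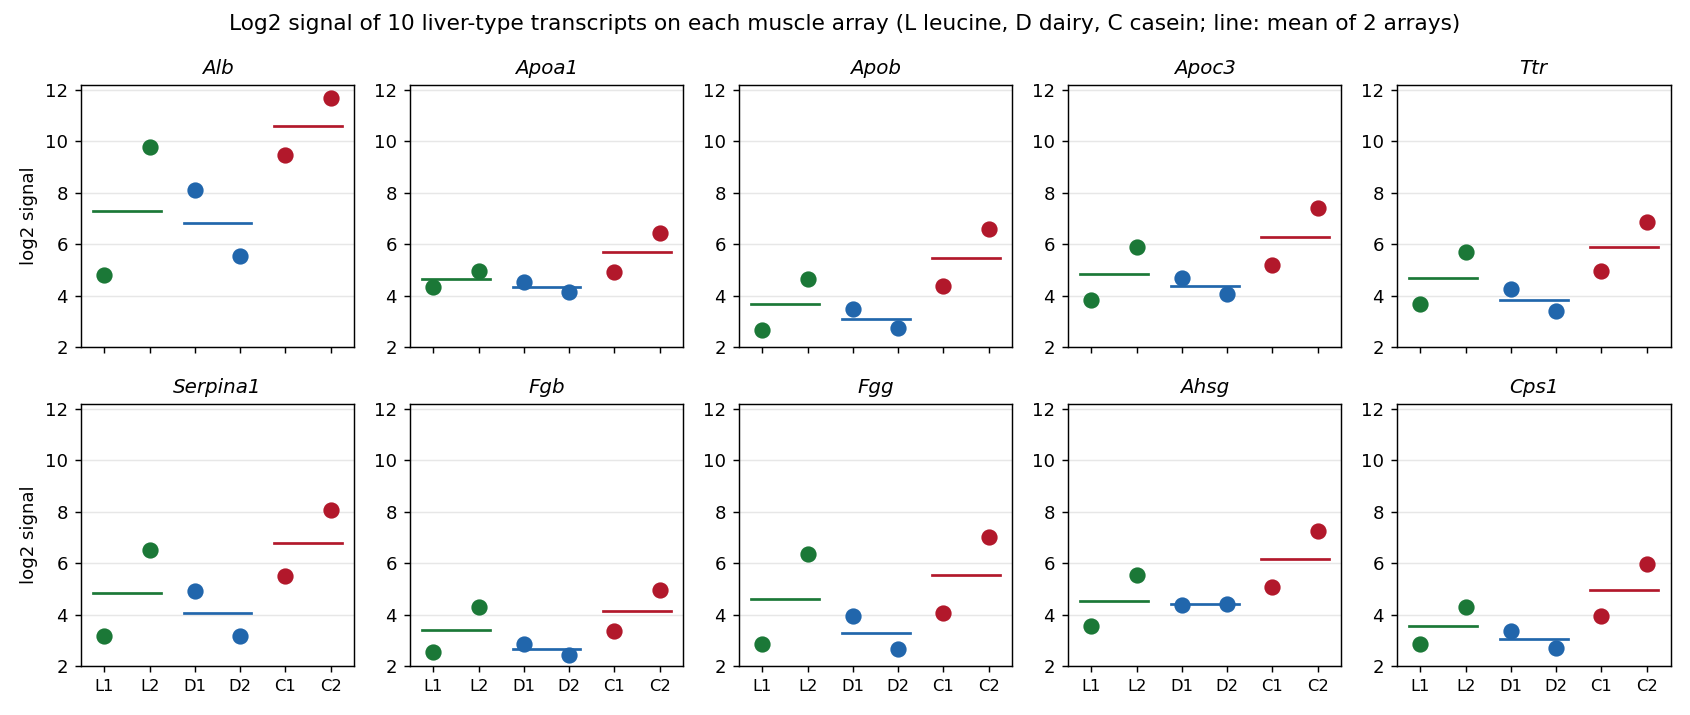
Each panel plots 1 gene, with log2 signal on the vertical axis and the 6 arrays along the horizontal axis (L leucine, D dairy, C casein); points are arrays and lines are the means of the 2 arrays of a diet. Casein array 2 is the highest point in all 10 panels, and Alb spans 4.81 to 11.69.

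The members moved together from array to array. Casein array 2 was highest, then leucine array 2, casein array 1 and dairy array 1, with leucine array 1 and dairy array 2 at the bottom, in 9 of 10 members, the exception being Ahsg, in which dairy array 2 was just above dairy array 1. Of all 14506 genes, 46 or 0.317% had that order, the members included. The lowest array was leucine array 1 in 5 members and dairy array 2 in the other 5. The signed difference, leucine array 1 minus dairy array 2, ran from −0.86 to 0.27 log2 units over the members, with a median of 0.05. The order of these arrays is therefore not settled. Across the 6 arrays the 45 pairs of members had Pearson correlations from 0.86 to 1.00, with a median of 0.97, and across the 5 arrays without casein array 2 from 0.79 to 0.99, with a median of 0.95. These correlations describe 6 shared arrays and were part of how the genes were chosen.

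Within diets the arrays differed by a median over the members of 2.0 log2 units for leucine (array 2 minus array 1), 0.71 for dairy (array 1 minus array 2) and 2.20 for casein (array 2 minus array 1). The same differences had a median of 0 over all genes. For casein the members' differences were close to each other, from 1.54 to 2.94, whereas for leucine they ran from 0.61 in Apoa1 to 4.98 in Alb.

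The members were also set side by side on a linear scale that takes out each gene's own range. For each gene the signal on its lowest array was subtracted, and the remainder on each array was expressed as a percent of that on casein array 2. Casein array 1 then held a median of 16.2% over the 10 members (8.60% to 21.0%), and dairy array 1 a median of 7.53% (5.30% to 8.21%). Alb, whose log2 range was the widest, stood at 21.0% and 7.61%, near Apoa1, whose range was the smallest, at 17.8% and 7.87%. Subtracting the lowest array fixes each gene at 0 there and at 100% on casein array 2, so only the other 4 arrays carry information, and part of the closeness comes from the scaling itself.

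Leucine array 2 set the fibrinogen chains apart from the other members. Fgb stood at 55.8% and Fgg at 62.1% of casein array 2 there, while the other 8 members ran from 19.0% to 38.6% with a median of 25.3%. Fga, the remaining chain and no member, stood at 65.8%. Haptoglobin, Hp, the haemoglobin-binding acute phase protein, stood at 51.7%, and hemopexin, Hpx, which binds haem, at 57.5%, whereas Serpina3n, a protease inhibitor of the acute phase, stood at 4.90%. The acute phase genes therefore did not share 1 ratio on this array. Among 58 measured other plasma proteins of hepatocytes, 31 varied by over 1 log2 unit and were highest on casein array 2. On leucine array 2 these had a median of 38.7% (1.24% to 95.9%), with transferrin, Tf, at 58.5%. Shares like those of the fibrinogen chains were therefore not particular to them. The grouping of the fibrinogen chains was made after the values were seen, and its source was not tested.

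**Figure D2:**
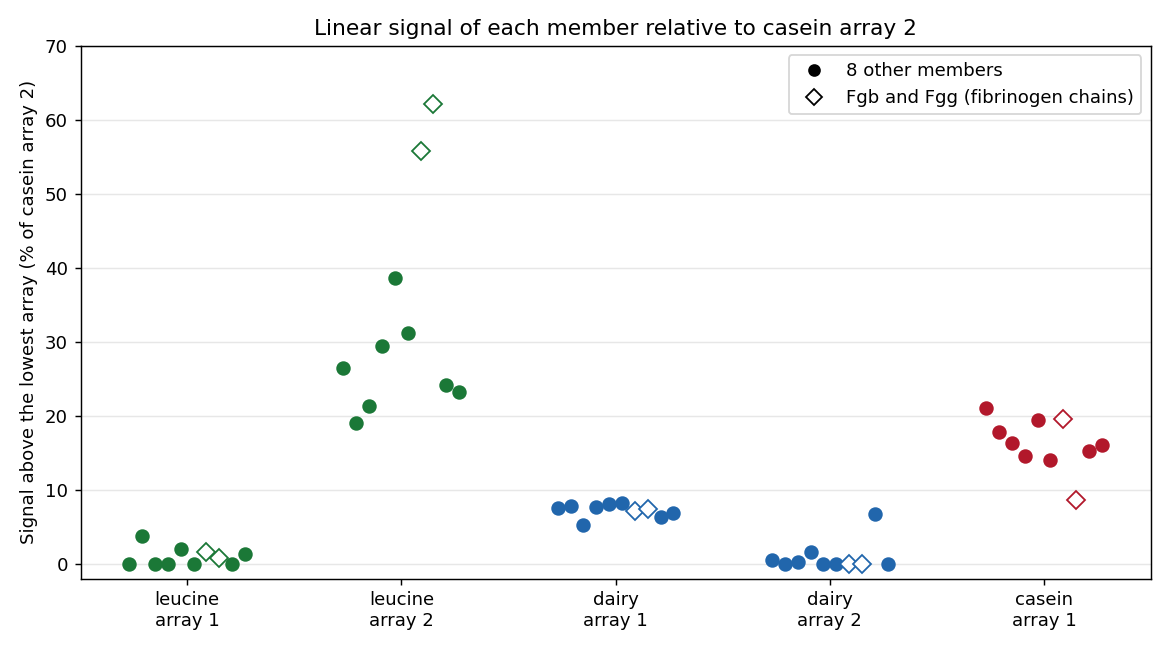
The vertical axis gives each member's linear signal above its lowest array as a percent of that on casein array 2, and the horizontal axis the other 5 arrays; each point is 1 gene. On leucine array 2 the open diamonds, Fgb at 55.8% and Fgg at 62.1%, lie above the 8 other members, which end at 38.6%.

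Because the members moved together, the stretches around their gene starts are shown for 4 of them, from 250 bases before to 50 bases after the start annotated by RefSeq on build GRCr8, read along the gene's own strand. Of the 10 members 7 had such a sequence. The 4 shown are those with a match to a liver factor among the letters searched; Ttr and Serpina1 had no match of any kind, and Fgg had only the TATA box letters. Capitals mark matches, on either strand, to letters from sites of liver transcription factors: GTTAAT for the core of HNF1 sites, AAAGTCC for HNF4, TGTTTAC for FOXA and TTGCNNAA for C/EBP, where N is any base. The Alb stretch is chr14:17906930-17907229 and the Fgb stretch chr2:170700826-170701125, both on the minus strand. The Ahsg stretch is chr11:91632534-91632833 on the minus strand, and the Cps1 stretch chr9:76063613-76063912 on the plus strand.
Alb: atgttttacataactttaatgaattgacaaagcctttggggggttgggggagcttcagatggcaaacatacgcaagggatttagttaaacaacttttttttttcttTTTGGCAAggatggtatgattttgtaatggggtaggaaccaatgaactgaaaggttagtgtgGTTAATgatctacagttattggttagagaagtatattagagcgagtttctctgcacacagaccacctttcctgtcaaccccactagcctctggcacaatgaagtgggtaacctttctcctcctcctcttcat
Fgb: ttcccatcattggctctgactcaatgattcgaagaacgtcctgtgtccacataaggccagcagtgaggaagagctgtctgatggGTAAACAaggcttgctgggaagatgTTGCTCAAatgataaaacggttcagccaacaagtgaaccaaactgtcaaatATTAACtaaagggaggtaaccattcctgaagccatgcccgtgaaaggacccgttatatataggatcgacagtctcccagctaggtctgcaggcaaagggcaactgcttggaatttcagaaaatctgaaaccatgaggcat
Ahsg: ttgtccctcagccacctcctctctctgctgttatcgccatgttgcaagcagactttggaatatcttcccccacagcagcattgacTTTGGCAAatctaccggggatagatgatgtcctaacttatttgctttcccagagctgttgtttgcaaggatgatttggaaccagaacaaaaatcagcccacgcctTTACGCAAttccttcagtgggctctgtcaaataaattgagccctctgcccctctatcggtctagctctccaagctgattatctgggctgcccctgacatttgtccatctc
Cps1: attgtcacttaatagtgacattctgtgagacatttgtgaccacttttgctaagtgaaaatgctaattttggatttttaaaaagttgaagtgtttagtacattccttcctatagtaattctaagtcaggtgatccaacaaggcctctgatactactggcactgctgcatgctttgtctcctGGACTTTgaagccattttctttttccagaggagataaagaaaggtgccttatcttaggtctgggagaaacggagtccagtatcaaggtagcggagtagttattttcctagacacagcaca
Alb held the HNF1 core 82 bases before the start and a C/EBP match further upstream. Fgb held 1 match each for the HNF1 core, FOXA and C/EBP, Ahsg held 2 for C/EBP, and Cps1 held 1 for HNF4. The HNF1 core occurred in 2 of the 7 members, in 16 of 50 promoters of other hepatocyte plasma proteins and in 7.45% of all 33469 promoters. The C/EBP letters occurred in 3 of 7, in 14 of 50 and in 10.6% of all. HNF4 letters were in 1 of 7 members, 3 of 50 and 4.63% of all promoters, and FOXA letters in 1 of 7, 5 of 50 and 3.78%. The letters TATAAA of the TATA box were in 1 of 7, Fgg, in 9 of 50 and in 14.2% of all. A match shows only that the letters are there.

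The diets were then compared in a single limma model over all genes. With leucine all 10 members were lower than with casein, with a median log2 fold change of −1.41, where all genes had a median of 0. Alb averaged 7.31 ± 3.52 on the leucine arrays and 10.58 ± 1.56 on the casein arrays (SD over 2 arrays of a diet, here and below), and its log2 fold change was −3.28 ± 2.05 (SE). For Apob the means were 3.66 ± 1.41 with leucine and 5.48 ± 1.55 with casein, a difference of −1.82 ± 1.04 log2 units. The leucine arrays lay wholly below the casein arrays in 0 of 10 members, where 15.6% of all genes did so, since leucine array 2 was above casein array 1 in each member. By limma 0 of 10 members passed an adjusted p of 0.05 and 0 had an unadjusted p under 0.05, where 0% and 9.61% of all genes did. Without casein array 2 the median was −0.36 and Fgb and Fgg turned to 0.04 and 0.53. Without leucine array 1 the median was −0.52, and Fgb and Fgg turned to 0.13 and 0.83. Without leucine array 2 it was −2.54 and without casein array 1 it was −2.47. In bulk muscle fewer cells of a type and less RNA per cell cannot be told apart.

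With dairy all 10 members were also lower than with casein, with a median log2 fold change of −2.0, against 0 for all genes. Serpina1 averaged 4.06 ± 1.23 on the dairy arrays and 6.79 ± 1.81 on the casein arrays, and its log2 fold change was −2.74 ± 1.54. Apoa1 averaged 4.33 ± 0.28 with dairy and 5.68 ± 1.09 with casein, a log2 fold change of −1.35 ± 0.58. Both dairy arrays lay below both casein arrays in all 10 members, which was so in 11.7% of all genes. The gap between dairy array 1 and casein array 1 was small in Fgg, 0.13 log2 units, and widest in Alb, 1.37. By limma 0 of 10 members passed and 0 had an unadjusted p under 0.05, where 0% and 4.8% of all genes did. Without casein array 2 the median was −0.87, and without casein array 1 it was −3.02. Both comparisons use the same casein arrays, so they are not separate evidence.

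Leucine against dairy leaves the casein arrays out of the contrast. All 10 members were higher with leucine on average, with a median log2 fold change of 0.55, against 0 for all genes. Fgg had the largest difference, averaging 4.60 ± 2.50 on the leucine arrays and 3.30 ± 0.92 on the dairy arrays, for a log2 fold change of 1.31 ± 1.62. Ahsg had the smallest, 4.54 ± 1.39 with leucine and 4.39 ± 0.02 with dairy, a log2 fold change of 0.15 ± 1.00. The sign rested on leucine array 2: without leucine array 2 the median was −0.44 and 9 of 10 members were below dairy, Apoa1 being at 0.01. Without leucine array 1 the median was 1.60, without dairy array 1 it was 0.96, and without dairy array 2 it was 0.18, where 2 members turned sign. By limma 0 of 10 passed and 0 had an unadjusted p under 0.05, where 0% and 5.7% of all genes did.

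**Figure D3:**
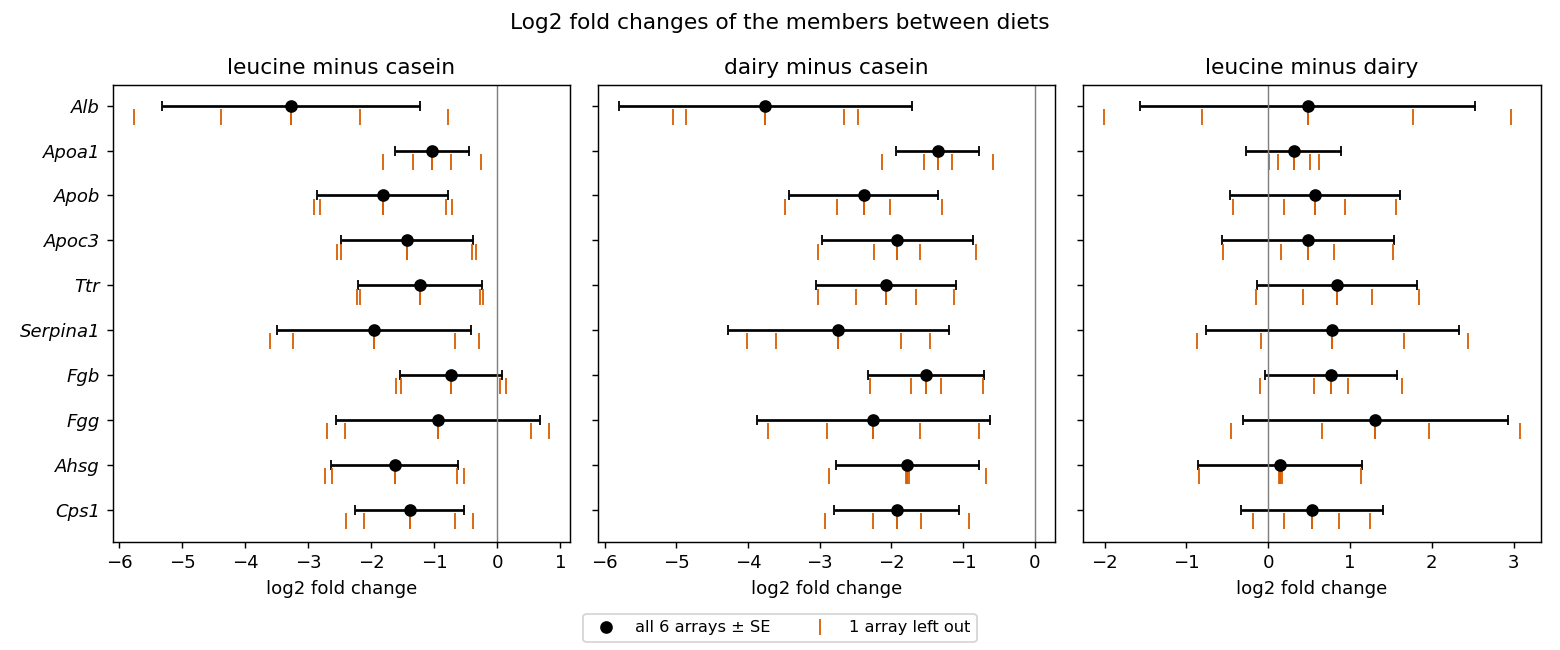
The horizontal axis gives the log2 fold change of each member in each of the 3 comparisons; black points and bars are the fit to all 6 arrays with its SE, and orange ticks are the fits with 1 array left out. The black point of every member lies below 0 for both comparisons with casein, although ticks of Fgb and Fgg pass 0 for leucine, while the ticks for leucine minus dairy lie on both sides of 0.

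Other hepatocyte genes were set beside the members. Of 58 measured other plasma protein genes, 51 were lower with leucine than with casein (median log2 fold change −0.42) and 53 were lower with dairy than with casein (median −0.55), and 0 passed in either direction in any of the 3 comparisons. Without casein array 2 the counts were 30 of 58 lower with leucine (median −0.01) and 46 of 58 lower with dairy (median −0.15), where 47.4% and 45.3% of all genes were lower. Casein array 2 was their highest array in 44 of 58, against 21.5% of all genes. The order of the 4 highest arrays seen in the members occurred in 16 of the 58, against 0.317% of all genes. It was rarer in the other hepatocyte lists described below. There it occurred in 2 of 35 metabolic genes, or 5.71%, and 1 of 11 acute phase genes (Fga, also among the 58). It occurred in 0 of 6 urea cycle genes and 0 of 14 hepatic transcription factors. The lists also differed in how many genes varied by over 1 log2 unit. These were 37 of the 58, 17 of 35 metabolic, 10 of 11 acute phase, 1 of 6 urea cycle and 1 of 14 transcription factor genes. In lists of mostly flat genes, the lack of an exact order says little. Transferrin, Tf, the iron carrier, which muscle cells can also make, stood at 5.08 and 8.02 with leucine, 6.96 and 5.54 with dairy, and 7.35 and 8.71 with casein. Vitronectin, Vtn, an adhesive plasma protein, ran from 6.12 on leucine array 1 to 7.30 on casein array 2. Apoe and Serping1, which are made by many cell types, were lower on leucine array 2 than on dairy array 1, at 7.71 against 8.55 and 6.50 against 7.80, unlike the members.

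Acute phase genes, 11 measured and 3 of them shared with the plasma protein list, were lower in 11 of 11 with leucine (median −0.57) and with dairy (median −1.28) than with casein. Without casein array 2 these counts were 4 of 11 with leucine, with a median of 0.11, and 8 of 11 with dairy, with a median of −0.29. Serpina3n stood at 4.31 and 5.66 with leucine, 5.74 and 4.34 with dairy, and 5.47 and 9.34 with casein, and Hamp, the iron regulator hepcidin, reached 6.28 on casein array 2 and 3.41 to 4.18 elsewhere. Both were high on casein array 2 alone. Ceruloplasmin, Cp, the copper-carrying ferroxidase, stood at 6.43 on leucine array 2 and 6.87 on casein array 2, and at 5.40 to 5.82 elsewhere. Hp stood at 3.80 and 5.85 with leucine, 4.40 and 3.72 with dairy, and 4.40 and 6.63 with casein. 0 of the 11 passed in any comparison.

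The enzymes of hepatocytes were examined next. Of 35 measured metabolic genes, 29 were lower with leucine than with casein and 31 were lower with dairy than with casein, with medians of −0.26 and −0.50, and casein array 2 was highest in 26. Leaving out casein array 2, 16 were lower with leucine and 28 with dairy, with medians of 0.00062 and −0.15. Adh1c, an alcohol dehydrogenase, and Hpd of tyrosine breakdown reached 6.06 and 5.72 on leucine array 2 and 6.30 and 5.60 on casein array 2. Pck1, which starts gluconeogenesis and is also active in fat cells, stood at 6.06 on dairy array 1 and 6.60 on casein array 2. Sult1a1, a sulfotransferase, ran from 6.16 to 7.16 with casein array 1 lowest.

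The urea cycle partners of Cps1 differed among themselves. Ass1, argininosuccinate synthase, stood at 4.39 and 4.70 with leucine, 4.32 and 4.23 with dairy, and 4.71 and 5.90 with casein. Arg1, arginase, ran from 3.04 on dairy array 2 to 3.63 on casein array 2. Asl, argininosuccinate lyase, kept within 4.58 and 4.82 on all arrays, and Slc25a15, the mitochondrial ornithine carrier, was highest on leucine array 1 at 5.63. Of the 6 genes 5 were lower with leucine and 6 with dairy than with casein, with medians of −0.16 and −0.27, and 0 passed. On the 5 other arrays, 4 were lower with leucine and 5 with dairy, with medians of −0.02 and −0.14.

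Transcription factors of hepatocytes and markers of other liver cells were mostly dim. Over the 6 arrays the median gene of these lists stood at 3.13 and 2.87, at percentiles 34.0 and 28.5 of all genes. The 14 measured hepatic transcription factors had medians between −0.08 and 0.08 log2 units relative to their gene means on the 6 arrays, where the members ran from −1.39 to 2.23. Among them Cebpb, which also responds to inflammation, reached 7.47 on casein array 2 and lay between 6.10 and 6.38 elsewhere, while Cebpa, Prox1 and Creb3l3 each varied by under 1 log2 unit. Of the 14, 12 were lower with leucine and 14 with dairy than with casein, with medians of −0.10 and −0.15, and 0 passed. With casein array 2 left out, 10 were lower with leucine and 13 with dairy, with medians of −0.12 and −0.13. Markers of Kupffer, stellate, sinusoidal and bile duct cells, 11 measured, had medians between −0.05 and 0.03, and 8 were lower with leucine and 7 with dairy than with casein, or 7 and 4 without casein array 2. Their highest members were Lyve1, Colec11, Lrat and Krt19, of which Lyve1, also found in lymphatic vessels and muscle macrophages, was highest on dairy array 2 at 5.72. Lrat, which esterifies retinol in stellate cells, stood at 2.56 and 3.07 with leucine, 3.27 and 3.27 with dairy, and 2.87 and 3.94 with casein. Like the members it was highest on casein array 2, but unlike them it was lower on leucine array 2 than on both dairy arrays.

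Markers of other sources were examined in the same way. Enterocytes also make apolipoproteins and Cps1, and their 7 measured markers had medians between −0.12 and 0.03, with 0 genes varying by over 1 log2 unit and Apoa4 at 4.19 to 4.38. Exocrine pancreas and kidney tubule markers, 12 measured, had medians between −0.14 and 0.10, and red blood cell markers, 5 measured, between −0.06 and 0.02. The median genes of the enterocyte, pancreas and kidney, and red blood cell lists stood at 2.66, 2.95 and 2.88. These lay at percentiles 23.4, 30.4 and 28.7 of all genes, and flat medians of such dim genes cannot show that these sources were constant. Hbb, a haemoglobin chain, was bright and ran from 7.54 on leucine array 2 to 8.29 on casein array 1. Adipocyte markers, 10 measured, had medians of −0.40 and −0.38 on the leucine arrays, 0.75 and −0.26 on the dairy arrays, and −0.02 and 0.60 on the casein arrays. Adipoq, the fat cell hormone adiponectin, was high on dairy array 1 at 6.72 and on casein array 2 at 7.42, and low on leucine array 2 at 4.22, where the members were second highest. Pck1, given above, is on this list too. The other 2 of its 4 brightest genes ran otherwise: Fabp4, a fatty acid carrier, stood at 7.72 on dairy array 1 and was lowest on casein array 2 at 6.89, and Lipe, hormone-sensitive lipase, was lowest there at 5.46. Casein array 2 was the highest array in 6 of the 10. Macrophage markers, 11 measured, stood at −0.32 and −0.53 with leucine, 0.25 and 0.20 with dairy, and −0.49 and 0.63 with casein, and casein array 2 was highest in 7 of the 11. Of their brightest genes, C1qc, a complement chain, and Mrc1, a mannose receptor, reached 7.14 and 6.65 on casein array 2, whereas Csf1r, a growth factor receptor, and Cd163, a haemoglobin scavenger receptor, were highest on dairy array 1 at 6.33 and 5.88, in Cd163 level with casein array 2. By their list medians, casein array 2 was thus high for liver-type and macrophage genes, and it was low for slow-fibre genes. The adipocyte median was also high there, at 0.60, but higher on dairy array 1, at 0.75. Of the 10 adipocyte genes, 3 were highest on dairy array 1 and 1 on dairy array 2, and Fabp4 and Lipe were lowest on casein array 2. Leucine array 2 was high for the liver-type genes and low by the medians of the adipocyte and macrophage lists. Against casein, adipocyte genes were lower in 8 of 10 with leucine (median −0.69) and in 6 of 10 with dairy (median −0.15). Without casein array 2 these counts were 8 and 3, with medians of −0.31 and 0.08. Macrophage genes were lower in 11 of 11 with leucine (median −0.58) and in 3 of 11 with dairy (median 0.10). Without casein array 2 these counts were 6 and 0, with medians of −0.17 and 0.66. By the counts over all arrays, lower levels with leucine than with casein were thus not confined to hepatocyte genes. With dairy, 7 of 11 macrophage genes were instead higher than with casein. Of all 14506 genes, 7122 were lower with leucine and 6718 with dairy, or 47.4% and 45.3% without casein array 2.

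Summed on the linear scale, the members reached 123 and 1315 on the leucine arrays, 440.0 and 146 on the dairy arrays, and 954 and 4406 on the casein arrays. Alb alone made up 22.9% and 67.7% of these sums with leucine, 62.9% and 31.7% with dairy, and 74.8% and 74.7% with casein. Without Alb the sums were 94.5 and 425 with leucine, 163 and 99.96 with dairy, and 240.3 and 1113 with casein, so casein array 2 stayed highest and leucine array 2 second. The sums of the adipocyte list ran from 306 to 608, those of the macrophage list from 256 to 730.2 and those of the enterocyte list from 50.8 to 57.5. Whether liver RNA was in the samples was not tested, nor was the part of these cell types in the members' levels.

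**Figure D4:**
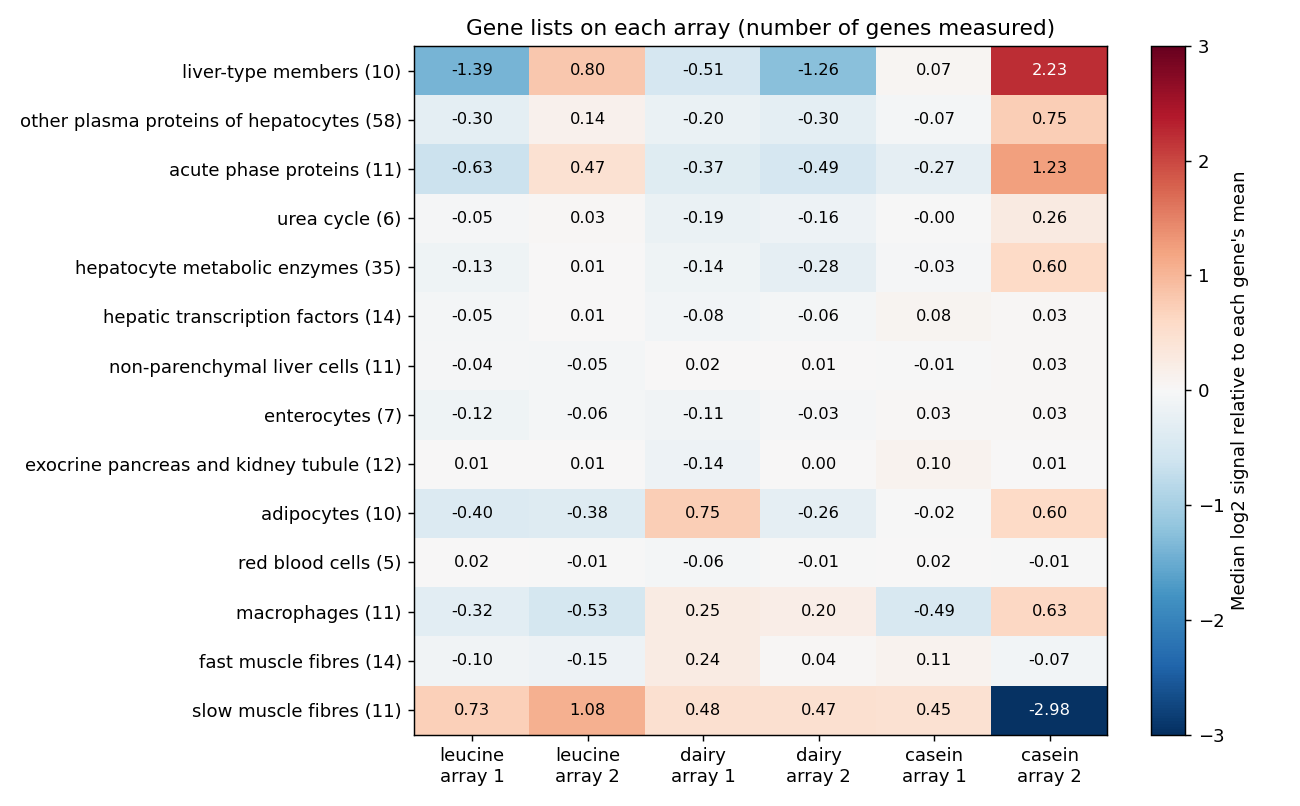
Each cell gives the median over a gene list of log2 signal relative to each gene's own mean over the 6 arrays, with the lists down the page and the arrays across. The liver-type members run from −1.39 on leucine array 1 to 2.23 on casein array 2, and slow-fibre genes lie at −2.98 on casein array 2.

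The genes with the most similar pattern were sought among the 1429 other genes that varied by at least 1 log2 unit, by Pearson correlation over the 6 arrays with the members' mean profile. The 12 most alike, with correlations from 0.98 to 0.99, were Pzp, Gc, Ambp, Apoh, Slc27a2, Fga, Pigr, Cyp2c23, Mug1l1, Plg, Hpx and Mug2. Gc, the vitamin D-binding protein, stood at 2.44 and 5.91 with leucine, 4.32 and 2.57 with dairy, and 5.03 and 7.43 with casein. Pzp, an alpha-macroglobulin protease inhibitor, stood at 2.59 and 5.47 with leucine, 3.58 and 2.81 with dairy, and 4.31 and 6.52 with casein. Of the 12, 6 were on the plasma protein list. The rest were on none of the gene lists, so the lists do not say which cells make them. Among the 12, 8 ranked the 6 arrays exactly as the members' mean profile does. Only 4 of the 10 members have that order themselves. In the others leucine array 1 and dairy array 2, or for Ahsg the dairy arrays, trade places. Ranked by Spearman correlation instead, 16 of the 1429 genes tied at 1. These correlations rest on 6 arrays and carry no test.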

How the data were processed

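The authors deposited 1 log2 signal for each transcript cluster on each array. Per the submitters' processing notes the software was Affymetrix Expression Console; its version, background correction, normalization and summarization are not given in the sources used here. Values ran from 1.14 to 13.7, which fits log2. The number of arrays, not a read depth, limits the precision.

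Rows were named from the platform annotation, and symbols were updated through RefSeq gene identifiers for 15279 of 15310 rows with 1 gene. The row with the highest mean was kept for each of 14506 genes, with no filter on low values. limma 3.58.1 in R 4.3.3 was fitted to all 6 arrays with diet as the only term, with a Benjamini-Hochberg adjustment over all genes and a threshold of 0.05. The fit was tested on simulated data. Symbols of the lists missing from the table were looked up as synonyms.

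The members and gene lists were chosen with earlier results of these data known. Beyond the members, the naming rule took the 4 genes of highest mean level in each list and the 12 genes most like the members. Of the 4, the text leaves out those of the muscle fibre and the pancreas and kidney lists. It also leaves out all but Apoa4 of the enterocyte list and all but Hbb of the red blood cell list. Other names were chosen after their values were seen. The order of arrays and the linear signal as a percent of casein array 2 were also taken up after the values were seen. A longer form of the HNF1 site was also searched and then dropped, and its result is not reported here. Replicate numbers were not taken to pair arrays, since array 2 minus array 1 correlated across genes at 0.179 between leucine and casein, 0.0865 between dairy and casein and 0.0536 between leucine and dairy. Alternatives were quantile normalization, median centring, the mean over a gene's rows, genes above the median gene, a mean-variance trend, a replicate block and leaving out each array; the lists without casein array 2 and the sums without Alb were added after the data were seen.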

Additional observations from a re-analysis of the deposited data

How the results depend on the processing

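Leaving out 1 array moved the members' median log2 fold change between −2.54 and −0.36 for leucine against casein, between −3.02 and −0.87 for dairy against casein, and between −0.44 and 1.60 for leucine against dairy. The sign of the median turned in the last comparison alone, without leucine array 2. The count of genes past the threshold in limma ran from 0 to 1 for both comparisons with casein and was 0 for leucine against dairy. The single gene was Il6, without casein array 1, where casein array 2 alone stood for its diet, and no member passed. Il6 stood at 6.97 on casein array 2, at 2.12 to 2.40 on the leucine and dairy arrays, and lowest on casein array 1. The casein arrays thus disagreed in Il6, so a diet difference cannot be read from that fit. Quantile normalization, median centring, the mean over rows, the filter on dim genes, the mean-variance trend and the replicate block turned the sign of no member and left 0 genes past the threshold. The filter kept 7 of the 10 members and left out Apob, Fgb and Cps1. With the replicate block the medians were −1.41, −2.0 and 0.55 as without it, since the block is balanced over the diets, and the lowest adjusted p was 0.402, 0.783 and 0.694. With 2 arrays per diet, differences within the spread between arrays could not be resolved. When 1 array is left out, the lone array of its diet is assumed to vary like the others.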
